A study of Mus musculus with 12 samples.

Results

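The genes described here are Myc, the transcription factor MYC, and 37 genes whose proteins build ribosomes in the nucleolus, 38 of the 41740 genes in the deposited tables. They were taken by gene symbol, and all 38 were found. The list was chosen with earlier results of these data known, so counts over it are a description. Ribosomes are assembled in the nucleolus, where RNA polymerase I transcribes the large ribosomal RNA precursor. Small nucleolar ribonucleoproteins (snoRNPs) modify and cleave that precursor, and separate sets of assembly factors then mature the small and the large subunit. MYC is an E-box-binding factor known for driving many of these genes, and regenerating kidney tubules are known to enlarge their nucleoli.

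The samples were whole kidneys of wild-type C57BL/6NCrl male mice, 6 with rhabdomyolysis-induced acute kidney injury (RIAKI) and 6 sham controls, with 1 library per mouse. Every mouse of both groups went without drinking water for 19 h, was anaesthetised with isoflurane and received Rimadyl at 5 mg per kg for pain. RIAKI mice were then injected in the left hind limb with 50% glycerol at 0.05 ml per 10 g of body weight, controls were given saline, and kidneys were taken at 24 h. The study kept 10 mice per group, and which of them were sequenced is not given in the sources used here. A whole kidney mixes all nephron segments with vessels and blood cells, so the values are averages over cell types.

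Each library holds counts of deduplicated reads, 1 for each tagged RNA molecule, from the 3′ ends of transcripts. Total exon counts ranged from 1579157 to 1911871 in RIAKI and from 1673329 to 2073959 in controls. Mitochondrial ribosomal RNA took 34.1% to 58.9% of them in RIAKI and 36.6% to 52.7% in controls, with no detected difference between the groups (2-sided exact permutation test, p = 0.665). Kidney markers were present in every group, and 10 of 10 proximal tubule markers fell in RIAKI, with a median log2 fold change of -2.04. Their summed level was 2777 to 6611 CPM (counts relative to the TMM-adjusted library size) against 7963 to 12951. Most of that sum was Kap (group means 4629 and 8526 CPM), which had the smallest fall, -0.88. Also lower were 4 of 5 thick ascending limb, 3 of 4 distal convoluted tubule and 4 of 6 collecting duct markers. The share that fell over all genes tested was 18.8%. Of the 8 listed markers of injured tubule 7 rose, and of the 7 listed neutrophil markers 3 rose, 1 was not called and the others were too low to test. In bulk tissue, fewer cells of a type and less RNA per cell cannot be told apart. P-values of the group contrasts set the difference against the spread between these mice.

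The groups were contrasted gene by gene in edgeR (quasi-likelihood test), with Benjamini-Hochberg adjustment over the 13536 genes tested and a threshold of 0.05. All 38 genes passed the filter of 10 counts summed over the libraries. Of these, 31 rose in RIAKI, none fell and 7 were not called. Among all genes tested, 17.4% rose and 18.8% fell. Every RIAKI library lay above every control library for 26 of the 38 genes, which held for 8.92% of all genes tested. The median log2 fold change was 1.20 over the 38 genes and -0.01 over all genes, and all 38 estimates were above 0. A log2 fold change of at least 1 was reached by 28 of them (73.7%), against 11.8% of all genes. The shares over all genes given here also stand beside the counts by role and by list below.

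**Figure D1:**
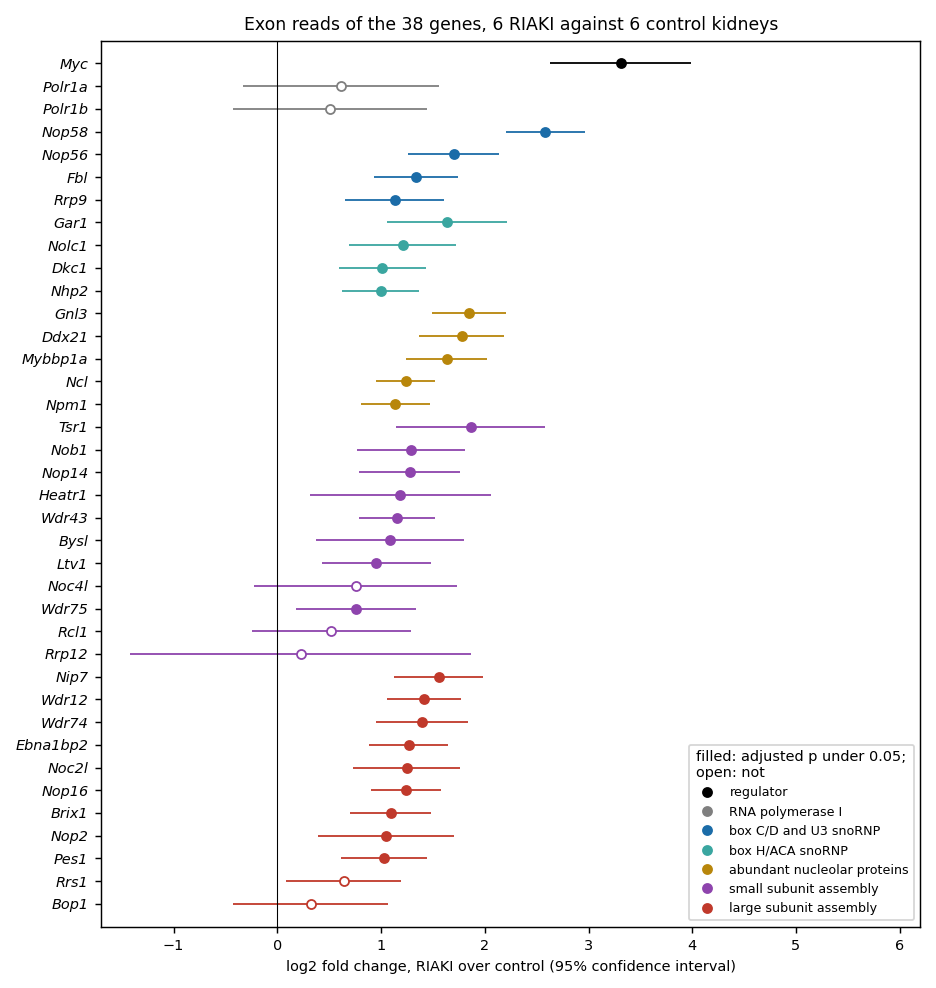
Log2 fold change of each gene (RIAKI over control, edgeR, 6 libraries a group) with its 95% confidence interval, in blocks by role. Filled points passed the adjusted p threshold and open points did not; Myc lies at 3.31, Nop58 at 2.58, and the interval of 6 of the 7 open points crosses 0.

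The summed level of the 38 genes ran from 1078 to 1485 CPM in RIAKI (mean 1185 ± 154, SD, n = 6) and from 476 to 501 CPM in controls (mean 490 ± 10.4, SD, n = 6). The groups were thus well apart, and controls varied little. Without nucleolin and nucleophosmin, a pair of abundant nucleolar proteins, RIAKI kidneys had a mean of 862 ± 76.6 CPM and controls one of 346 ± 17.3 CPM (both SD, n = 6). The ratio of the group means was 2.42 for all 38 genes and 2.49 without these genes.

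All 6 RIAKI kidneys showed the difference. The median difference of the 38 genes from their control mean ran from 0.955 on the log2 scale in RIAKI library 4 to 1.31 in RIAKI library 1. RIAKI library 6 had the highest summed level and held the highest value of its group for 10 genes, and RIAKI library 1 did so for 13.

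**Figure D2:**
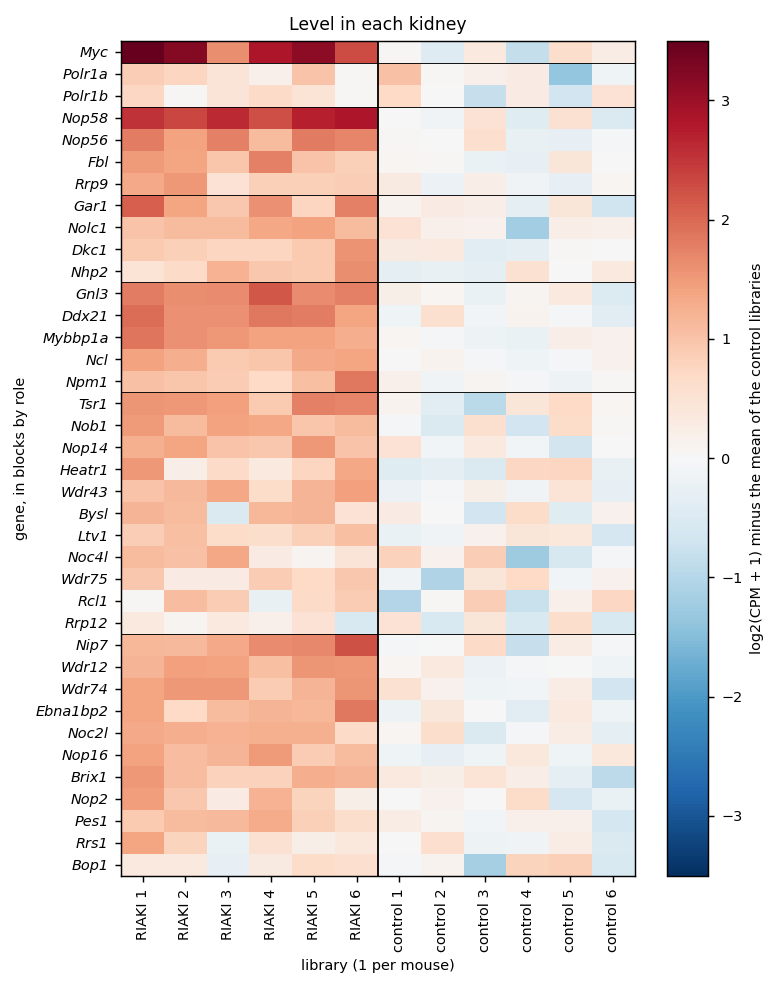
Level of each of the 38 genes in each of the 12 libraries, as log2(CPM + 1) minus the mean of the control libraries (colour), with genes in blocks by role. The 6 RIAKI columns are red for nearly all genes, least so for Polr1a, Polr1b, Rrp12, Rcl1 and Bop1.

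Myc (chromosome 15, 61985391 to 61990374, GRCm38) had the largest change of the 38 genes. It lay between 8.37 and 34.2 CPM in RIAKI (median 22.9) and between 0.705 and 3.66 CPM in controls (median 2.37). All RIAKI kidneys exceeded all controls, and RIAKI library 3 was the lowest of its group. The log2 fold change was 3.31 (SE 0.33, adjusted p = 2.27e-09, edgeR), resting on 250 counts in RIAKI and 24 in controls.

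RNA polymerase I makes the ribosomal RNA precursor, and neither of the listed subunits was called. Polr1a, the largest subunit, lay between 1.66 and 4.12 CPM in RIAKI (median 2.91) and between 0 and 4.22 CPM in controls (median 1.75). Its log2 fold change was 0.61 (95% confidence interval -0.33 to 1.56). For Polr1b, the second largest subunit, the log2 fold change was 0.51 (95% confidence interval -0.43 to 1.44), from 27 counts in RIAKI and 19 in controls. These intervals include both no change and a rise as large as the median of the 38 genes.

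Box C/D snoRNPs place ribose methyl groups on ribosomal RNA, and the U3 particle, of the same class, guides early cleavage. All 4 listed proteins rose, and for each the groups did not overlap. Nop58, a core protein of these particles, lay between 54.4 and 82.2 CPM in RIAKI (median 67.7) and between 7.22 and 15.9 CPM in controls (median 10.2). Its log2 fold change of 2.58 (SE 0.19, adjusted p = 2.69e-12, edgeR) was the next after Myc. Nop56, its partner in the core, had a median of 23.0 CPM in RIAKI (14.4 to 24.2) and 6.00 CPM in controls (4.88 to 9.83), a log2 fold change of 1.70. Fbl, the methyltransferase fibrillarin, had a median of 25.7 CPM in RIAKI (19.9 to 38.1) and 10.7 CPM in controls (8.46 to 14.7), a log2 fold change of 1.34. The smallest change of this group was that of Rrp9, the U3-specific protein, at 1.13.

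The 3 core box C/D proteins work in one particle, but their mRNAs rose unequally. Within a library, the log2 ratio of Nop58 to Nop56 averaged 1.64 ± 0.16 in the RIAKI kidneys and 0.69 ± 0.42 in controls (both SD, n = 6), a difference of 0.95 (2-sided exact permutation test, p = 0.00433, adjusted p = 0.0195 over 9 ratios). The log2 ratio of Nop58 to Fbl was 1.30 higher in RIAKI (exact permutation test, p = 0.00433, adjusted p = 0.0195). For Nop56 against Fbl the difference was 0.35 (exact permutation test, p = 0.240, adjusted p = 0.309). The ratios were formed within 3 complexes and chosen after the values had been seen, which the adjustment over 9 ratios does not cover.

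Box H/ACA snoRNPs convert uridines of ribosomal RNA to pseudouridine. All 4 listed genes rose. Gar1, a core protein, lay between 7.21 and 19.6 CPM in RIAKI (median 12.7) and between 1.97 and 5.49 CPM in controls (median 4.45), with a log2 fold change of 1.63 (SE 0.28, adjusted p = 2.72e-05, edgeR). Dkc1, the pseudouridine synthase dyskerin, had a log2 fold change of 1.01 and did not overlap between the groups (17.5 to 31.5 CPM against 7.49 to 13.0). Nhp2, a small core protein, had the lowest log2 fold change of the group, 1.00. Its groups overlapped, with 117 to 262 CPM in RIAKI and 65.6 to 123 in controls. Nolc1, which binds and escorts snoRNPs, rose with a log2 fold change of 1.21. Ratios between Gar1, Nhp2 and Dkc1 were formed within libraries. None of the 3 differed between the groups past the threshold (exact permutation tests, adjusted p between 0.179 and 0.924 over the 9 ratios). Nop10, a further core protein, stands outside the listed genes and was not called. Its log2 fold change was 0.20 (adjusted p = 0.288, edgeR), with group means of 223 CPM in RIAKI and 194 CPM in controls. No ratio to Nop10 was formed, so the ratios do not cover the whole core.

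The 5 abundant nucleolar proteins all rose without overlap. Gnl3, the nucleolar GTPase nucleostemin, had a median of 39.2 CPM in RIAKI (36.9 to 54.4) and 11.9 CPM in controls (7.88 to 14.7), a log2 fold change of 1.85 (SE 0.18, adjusted p = 8.43e-10, edgeR). Ddx21, an RNA helicase, had a median of 25.2 CPM in RIAKI (19.9 to 30.6) and 6.64 CPM in controls (5.25 to 11.0), a log2 fold change of 1.78. Ncl, nucleolin, an RNA-binding protein of the nucleolus, lay between 82.0 and 115 CPM in RIAKI (median 107) and between 38.8 and 47.9 CPM in controls (median 42.3). These 3 genes had the smallest p-values of the group. Npm1, the histone and ribosomal protein chaperone nucleophosmin, had the smallest change, 1.14, with 164 to 365 CPM in RIAKI (median 202) and 89.1 to 114 CPM in controls. Mybbp1a, a nucleolar protein that binds transcription factors, rose with a log2 fold change of 1.63.

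**Figure D3:**
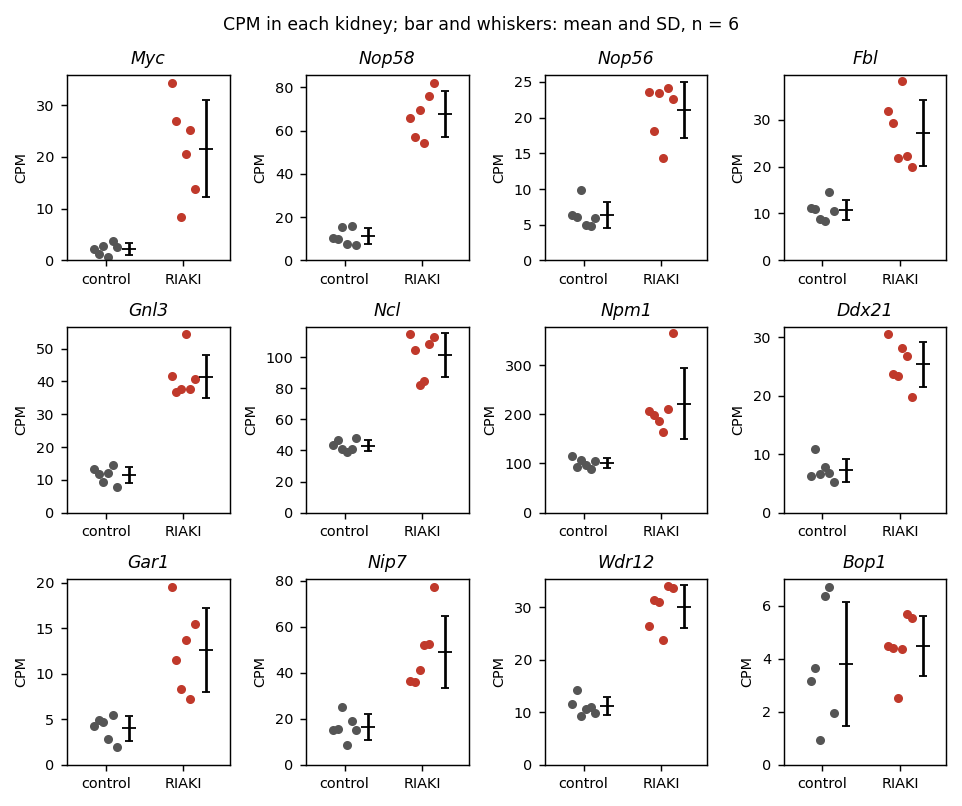
CPM of 12 of the genes in each library (points; grey control, red RIAKI), with the group mean and SD (bar and whiskers, n = 6). The groups are apart for 11 of them and overlap for Bop1, which lay between 2.51 and 5.67 CPM in RIAKI and between 0.937 and 6.72 CPM in controls.

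Of 11 small subunit assembly factors 8 rose. Tsr1, a late factor of the pre-40S particle, lay between 4.37 and 8.76 CPM in RIAKI (median 7.25) and between 0.468 and 3.66 CPM in controls (median 2.04), with a log2 fold change of 1.86 (SE 0.35, adjusted p = 9.19e-05, edgeR). Wdr43, a component of the early processome, lay between 24.4 and 43.0 CPM in RIAKI (median 35.6) and between 12.5 and 22.0 CPM in controls (median 14.4). Nop14, also an early factor, had a median of 12.8 CPM in RIAKI (11.2 to 17.0) and 5.09 CPM in controls (3.05 to 7.91). The groups of these 3 genes did not overlap. Nob1, the nuclease that forms the end of 18S ribosomal RNA, and Ltv1, a late export factor, also rose without overlap, with log2 fold changes of 1.29 and 0.95.

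The other small subunit factors overlapped between the groups. Bysl rose with a log2 fold change of 1.09, and its RIAKI libraries 3 (1.67 CPM) and 6 (4.41 CPM) lay below the highest control (4.94 CPM). Heatr1 (log2 fold change 1.19, adjusted p = 0.0289, edgeR) and Wdr75 (0.75, adjusted p = 0.0362, edgeR), both processome components, were called on 67 and 162 counts. Heatr1 lost the call when RIAKI library 1 or 6 or control library 1, 2, 3 or 6 was left out (adjusted p between 0.0535 and 0.105, edgeR). Wdr75 lost it without RIAKI library 1, 4 or 6 or control library 1, 2 or 5 (adjusted p between 0.0617 and 0.124, edgeR). With DESeq2 neither was called (adjusted p = 0.0616 for Heatr1 and 0.0666 for Wdr75). Rrp12, Noc4l and Rcl1 were not called, with log2 fold changes of 0.22, 0.75 and 0.52. Rrp12, an export factor, had 13 counts in all and lay between 0 and 1.03 CPM in RIAKI (median 0.720) and between 0 and 1.22 CPM in controls (median 0.468).

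Of 11 large subunit assembly factors 9 rose, 8 of them without overlap. Wdr12, of the PeBoW complex that joins the early pre-60S particle, lay between 23.7 and 34.0 CPM in RIAKI (median 31.2) and between 9.37 and 14.2 CPM in controls (median 10.8), with a log2 fold change of 1.42 (SE 0.17, adjusted p = 1.18e-07, edgeR). Nop16, a pre-60S factor, lay between 40.2 and 60.6 CPM in RIAKI (median 48.1) and between 17.1 and 27.6 CPM in controls (median 19.0). Nip7, a pre-60S factor as well, had a median of 46.4 CPM in RIAKI (35.8 to 77.3) and 15.4 CPM in controls (8.46 to 25.3), and its log2 fold change of 1.56 was the highest of these factors. Wdr74, Ebna1bp2, Noc2l, Brix1 and Pes1 rose without overlap, with log2 fold changes from 1.03 to 1.39. Nop2, an rRNA cytosine methyltransferase, rose with 1.05, and its groups overlapped.

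Rrs1 and Bop1 were the large subunit factors that were not called. Rrs1, which helps to bring the 5S particle into the subunit, had a log2 fold change of 0.64 (95% confidence interval 0.09 to 1.19, adjusted p = 0.0641, edgeR). It passed the threshold when RIAKI library 3 or 5 or control library 2 was left out (adjusted p between 0.0266 and 0.0421, edgeR). Without RIAKI library 1, its highest, the log2 fold change was 0.39 (adjusted p = 0.278, edgeR). Bop1 works with Pes1 and Wdr12 in PeBoW, and its log2 fold change was 0.32 (95% confidence interval -0.43 to 1.07). The log2 ratio of Wdr12 to Bop1 was 1.04 higher in RIAKI (exact permutation test, p = 0.00649, adjusted p = 0.0195 over the 9 ratios). For Pes1 against Bop1 the difference was 0.66 (exact permutation test, p = 0.0758, adjusted p = 0.170). These ratios too were chosen after the values had been seen, which the adjustment does not cover, and Bop1 had 90 counts in all.

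The genes differed widely in their counts. Of the 8 genes with under 100 counts over all libraries 2 were called, against 29 of 30 genes with more. The median log2 fold change also differed, 0.57 against 1.24, so low counts and smaller changes go together here. Tsr1 and Heatr1, with 99 and 67 counts, were called, and the 6 uncalled genes of the first class were Polr1a, Polr1b, Rrp12, Noc4l, Rcl1 and Bop1. At least 97.1% of the exon reads of every gene mapped to a single place. A gene with counts lies across from 14 of the genes on the other strand. Such partners include Idh3b (1050 counts) opposite Nop56, Mpp1 (1094) opposite Dkc1, Pbrm1 (641) opposite Gnl3 and Ccnd3 (402) opposite Bysl. Srr (324) lies opposite Tsr1, Lgals8 (320) opposite Heatr1, and Mroh1 (76) and Scx (79) opposite Bop1. Heatr1 and Bop1 themselves had only 67 and 90 counts. Whether the counting used strand is not given in the sources used here, so the values of these 14 genes are uncertain to that extent.

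**Figure D4:**
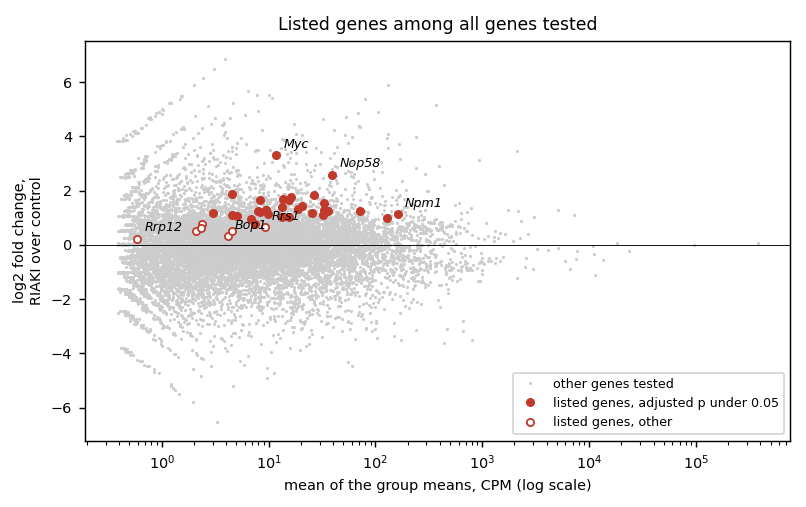
Log2 fold change (RIAKI over control) of the 13536 genes tested (grey) and of the 38 genes (red; filled where the adjusted p passed the threshold) against the mean CPM of both groups on a log scale. The open red points lie among the genes of lowest level, except Rrs1 with 212 counts.

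Intron reads gave a further readout of the same genes, and a thin one. Of the 10182 genes with at least 10 intron counts 3.14% rose and 5.31% fell, and 14 of the 38 genes could be tested. One of the 14, Npm1, rose (log2 fold change 2.21, SE 0.62, adjusted p = 0.00978, edgeR), from 30 intron counts in RIAKI and 6 in controls, and its groups overlapped. None fell. Ddx21 had 10 intron counts in RIAKI and 1 in controls and was not called (adjusted p = 0.102, edgeR), and it was called without control library 2 (adjusted p = 0.0474, edgeR). The log2 fold change was above 0 for 11 of the 14 genes, with a median of 0.96 against -0.11 over all genes. Myc had no intron counts.

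Covariation with Myc was examined within each group. With 6 libraries the smallest p that the exact permutation of 720 pairings can give is 0.00139, and about 376 genes would have to reach it together before any passed an adjusted p of 0.05, so the absence of adjusted calls says little and the values of r are a description. Over the 6 RIAKI libraries Pearson's r with Myc (log2 CPM) was above 0 for 23 of the 37 genes, with a median of 0.108, against 54.2% of all genes and a median of 0.0648. An unadjusted exact permutation p under 0.05 with r above 0 was found for 3 of the 37 genes (4.31% of all genes). They were Bysl (r = 0.936, rho = 0.829, exact permutation p = 0.0125 and 0.0583), Nop2 (r = 0.836) and Rrs1 (r = 0.834). Rrp9 and Brix1 followed with r of 0.799 and 0.663. At the other end stood Nhp2 (r = -0.794), Wdr43 (r = -0.515) and Rcl1 (r = -0.388).

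The smallest adjusted p of the 37 genes in RIAKI was 0.608 (exact permutation, Benjamini-Hochberg over 13504 genes). Without RIAKI libraries 3 and 6, the farthest from the median Myc level, r was above 0 for 29 of the 37 genes, with a median of 0.398, against 51.7% of all genes and a median of 0.0418. Without them r was 0.267 for Bysl, 0.417 for Nop2, 0.780 for Rrs1, 0.661 for Rrp9 and 0.923 for Brix1. The summed level of the 37 genes had r = -0.203 with Myc (rho = 0.0286, exact permutation p = 0.719 and 1), and r = 0.725 without these libraries, so the value depends on these libraries.

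The share of mitochondrial ribosomal RNA ran opposite to Myc in RIAKI, a relation that did not pass the adjustment (r = -0.904, rho = -0.943, exact permutation p = 0.0153 and 0.0167, adjusted p = 0.336 and 0.367 over 22 relations, r = -0.965 without libraries 3 and 6). Scaling by total counts alone, in which that share enters every level, gave r above 0 for 36 of the 37 genes and for 85.7% of all genes. The part of library composition in the covariation was not tested further.

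Over the 6 control libraries r with Myc was above 0 for 18 of the 37 genes, with a median of -0.01 against -0.02 over all genes. Myc itself was at only 24 counts there. An unadjusted exact permutation p under 0.05 with r above 0 was found for Nob1 (r = 0.951) and Nip7 (r = 0.803), 2 of 37 (2.39% of all genes). Nolc1, Rrp12 and Mybbp1a followed with r from 0.679 to 0.714. Nop2 (r = -0.925), Bysl (r = -0.748) and Ddx21 (r = -0.614) had the lowest values. Nop2 and Bysl, among the highest in RIAKI, were thus the lowest in controls. The smallest adjusted p of the 37 was 0.958 (exact permutation). Without control libraries 2 and 4, r was above 0 for 21 genes, with a median of 0.233 against 0.0154 over all genes.

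**Figure D5:**
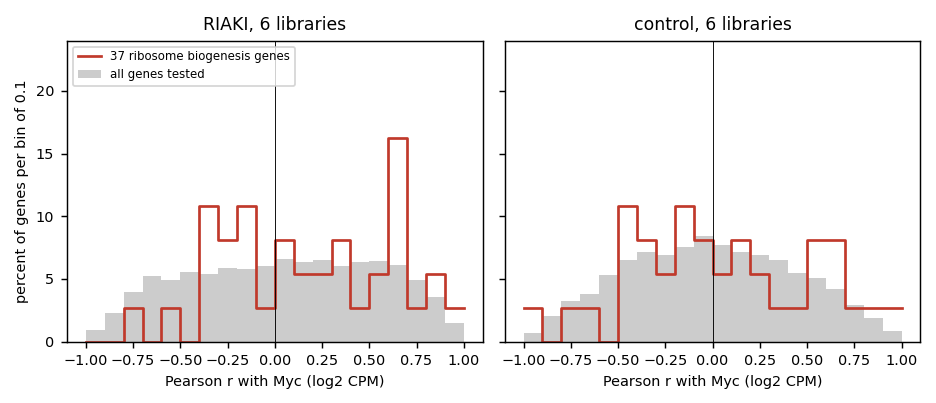
Distribution of Pearson's r with Myc over the 6 RIAKI libraries (left) and the 6 control libraries (right), for the 37 other genes (red line) and all genes (grey bars), in percent of genes per bin of 0.1. The red line spreads over both sides of 0 in both groups, with medians of 0.108 and -0.01.

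Genes of the same pathway outside the 38 were counted as well. Of 144 further ribosome biogenesis genes tested 72 rose, 2 fell and 70 were not called, with a median log2 fold change of 0.67. Over all genes tested 17.4% rose and 18.8% fell, with a median of -0.01. Eif6, which keeps new large subunits from joining small ones, rose from 58.3 to 298 CPM (group means), a log2 fold change of 2.36 (SE 0.15, adjusted p = 9.00e-14, edgeR). Rrp15 and Ccdc86, further large subunit factors, rose with 2.59 and 2.33. The genes that fell were Aatf (-1.79), a small subunit factor also known to counter apoptosis, and Mdn1 (-1.27), the giant ATPase that strips factors from the pre-60S particle.

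By role, 33 of 54 large subunit factors, 20 of 45 small subunit factors and 7 of 18 genes of RNA polymerase I transcription rose. So did 5 of 11 snoRNP genes and 7 of 16 exonuclease genes, against 17.4% of all genes tested. The small subunit genes that rose with the smallest p were Utp14a (1.95), Dimt1 (1.51) and Rrp7a (1.02). Of the polymerase I genes, Polr2h (1.30), a subunit shared between polymerases, Rrn3 (1.06), the initiation factor that links polymerase I to its promoter, and Taf1d (0.90) rose. Among snoRNP genes Snu13 (0.92), which binds box C/D RNA, and the assembly helicases Ruvbl1 (1.19) and Ruvbl2 (1.16) rose. Exosc1, Exosc2 and Exosc8, subunits of the exosome, rose with 0.98, 1.42 and 1.54. Of 13 host genes of snoRNAs 7 rose, among them, with the smallest p, Snhg6 (1.43) and Snhg1 (1.85).

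Partners and antagonists of MYC were measured too. Of 16 genes of the MYC network tested 3 rose and 4 fell, shares near the 17.4% and 18.8% of all genes. Max, the obligate partner of MYC, rose with a log2 fold change of 0.84 (SE 0.21, adjusted p = 0.00194, edgeR), with Bin1 (1.47) and the kinase gene Pim1 (1.02). Mxi1 (-1.10) and Mxd4 (-0.64), which compete with MYC for MAX, and Mlxipl (-1.52), a glucose-responsive relative, fell. Of 20 listed MYC-induced genes outside the nucleolus 10 rose, among them Ran (1.70), Eif4a1 (1.55) and Apex1 (2.21). Odc1 (-0.68), Shmt1 (-1.73) and Shmt2 (-1.47), enzymes of polyamine and serine metabolism, fell although they stand on the same list.

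Of 6 genes that MYC is known to repress, Ndrg2 (-1.61), Cdkn1b (-0.74) and Ndrg1 (-0.52) fell, Cdkn1a (4.71) and Gadd45a (2.07) rose, and Cdkn2b (-0.09) was not called. Free 5S particles are known to restrain MDM2 when ribosome assembly fails. Of 6 genes of that route Rpl5 (0.96), Mdm2 (0.60) and the p53 target Cdkn1a rose, while Rpl11 (0.49, adjusted p = 0.0529, edgeR), Mdm4 (-0.20) and Trp53 (-0.41) were not called. The gene lists of this and the foregoing paragraphs were written with earlier results known.

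Markers of other cells were measured in the same libraries. The summed level of the neutrophil markers was 17.1 to 48.1 CPM in RIAKI and 2.12 to 4.60 in controls, and the defining genes Ly6g and Mpo had no count in any library. For macrophages 3 of 7 tested markers rose and 1 fell, with sums of 60.6 to 91.6 against 31.7 to 51.2 CPM. Of 14 tested markers of cycling cells 3 rose, a share near the 17.4% of all genes. These were Pcna (1.11), Mcm2 (1.18) and Mcm3 (1.71), while Mki67 had a log2 fold change of -1.14 (SE 0.80) that was not called. Mki67 was very low in both groups, with group means of 0.368 CPM in RIAKI and 0.876 CPM in controls, so its value says little. The summed level of the cycling markers was 66.1 to 97.4 CPM in RIAKI and 43.3 to 57.6 in controls. Pcna alone had group means of 33.6 and 15.6 CPM. The part of these cells in the levels of the 38 genes was not tested.

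Promoter sequence was examined because MYC with MAX binds the E-box, searched as CACGTG. ETS-family, NRF1 and TATA motifs, which mark other promoter classes, were searched as well. Windows from 250 bases before to 50 after the start site (RefSeq, GRCm38.p6) were found for 32 of the 38 genes, 35 windows in all, and both strands were searched for exact letters. Myc had no window. An E-box stood in 6 of the 35 windows (17.1%), against 9.76% of the windows of all tested genes and 7.15% of all windows. The ETS letters CCGGAAG stood in 13 windows (37.1%) of 12 genes, against 16.6% and 8.86%. NRF1 letters, GCATGCGC, were in 1 window (2.86%, against 4.76% and 2.71%), and TATA letters, TATAAA, in 2 (5.71%, against 7.89% and 13.6%). Genes with an E-box in the window had a median log2 fold change of 1.10 (6 of 6 rose), and the 26 genes without had 1.24 (22 rose). An E-box beyond the window would be missed, and most genes of the list rose. The split is thus a description, and a part of the E-box in the changes was not tested. A match is a description of letters and not of binding.

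The E-boxes are shown with up to 10 bases on either side, on the strand of the gene, with the motif in capitals. They lay at different distances, with the first base of the motif counted from the start site as 1. In Nop2 it was at -60, and in the other genes it followed the start, at 3 in Pes1, 18 in Wdr43, 25 in Tsr1, 29 in Ltv1 and 41 in Mybbp1a. The places are chr6:125131813-125131838 (Nop2), chr11:3963967-3963992 (Pes1), chr17:71616222-71616247 (Wdr43), chr11:74898094-74898119 (Tsr1), chr10:13193094-13193119 (Ltv1, minus strand) and chr11:72441357-72441376 (Mybbp1a).
Nop2: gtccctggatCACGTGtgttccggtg
Pes1: ctaggcagggCACGTGcgggaggaag
Wdr43: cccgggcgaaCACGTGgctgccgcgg
Tsr1: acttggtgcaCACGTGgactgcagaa
Ltv1: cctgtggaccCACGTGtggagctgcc
Mybbp1a: cttctgagccCACGTGtttg

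Nop2, Tsr1 and Ltv1 held both an E-box and ETS letters, which did not share bases. Their ETS letters began at -38 in Nop2 (chr6:125131835-125131861), at -1 in Tsr1 (chr11:74898069-74898095) and at -55 and -98 in Ltv1, of which the site at -98 (chr10:13193219-13193245, minus strand) is shown. The letters are in capitals and read the same way in the 3 sites shown, while the other Ltv1 site, at -55, reads the opposite way. The log2 fold changes of the genes were 1.05, 1.86 and 0.95.
Nop2: ggtgccgcggCCGGAAGaggcggggcg
Tsr1: tcgggtccgcCCGGAAGtagagttcac
Ltv1: gccccacctcCCGGAAGtccccgggaa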

How the data were processed

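Kidney libraries of 6 RIAKI and 6 control mice were made by the authors with a 3′ kit that tags each RNA molecule. Per the study's methods, reads were demultiplexed, deduplicated by tag in CLC Genomics Workbench, aligned to the GRCm38 genome and counted per Ensembl gene. The deposited exon and intron counts are whole numbers, not normalized, and reads with further mapping places stay in the exon counts. The deposited TPM columns were not used. Groups were taken from the sample labels.

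The 38 genes and the gene lists were chosen with earlier results of these data known. Exon counts (at least 10 summed over 12 libraries, 13536 genes) were scaled by TMM and tested in edgeR 4.0.16 (quasi-likelihood, R 4.3.3, Benjamini-Hochberg threshold 0.05). The study's methods name edgeR's exact test, which was an alternative, as were DESeq2 1.42.0, limma 3.58.1 voom, other scalings and filters, a replicate block, single-place reads, thinned libraries and leaving out each library. CPM are TMM-scaled. Correlations and ratios used log2 CPM with a prior count of 2 and exact permutation. Intron counts were scaled with the factors of the exon counts. The scripts were tested on simulated data. Named in full were Myc, in each role group the 3 genes of smallest p and the 1 of smallest change, per pathway list up to 3 called genes a direction (all of lists of up to 6), and per group the 5 highest and 3 lowest r. Genes outside this rule are given by fold change, count or range.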

Additional observations from a re-analysis of the deposited data

Results flagged for a closer look

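In 6 of 76 groups of 6 libraries 1 library lay far from the others by Dixon's test at its 95% critical value, and chance alone gives about 1 in 20 groups. In RIAKI library 6, Npm1 was at 365 CPM (next 210) and Dkc1 at 31.5 CPM (next 19.6), both the highest of the group, and Noc2l at 7.73 CPM (next 11.7) was the lowest. Gnl3 was at 54.4 CPM in RIAKI library 4 (next 41.6). In controls, Nop56 was at 9.83 CPM in library 3 (next 6.33), and Nolc1 at 1.41 CPM in library 4 (next 5.15). All 6 genes kept their call without the library concerned.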

How the results depend on the processing

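The number of the 38 genes that rose was 31, and it was 27 at an adjusted p under 0.01, 29 with DESeq2, 30 with total-count scaling, 30 with thinned libraries, 32 with no filter and 29 to 32 when each library was left out. None fell under any of these alternatives, and no gene changed direction where it was called in the main test or in the alternative. Direction was not compared for genes called in neither. Of the 38 genes 32 kept their call under all 24 alternatives, and Rrp12 under the 23 that kept it (it fell out at a minimum of 1 CPM in 6 libraries). Besides the losses by left-out library, Heatr1 lost its call with DESeq2, the replicate block (adjusted p = 0.0539, edgeR), thinning and an adjusted p under 0.01, and Wdr75 with DESeq2, total-count scaling, thinning and an adjusted p under 0.01. Rrs1 gained one with no filter and with thinning. Bysl and Nop2 missed only an adjusted p under 0.01. With the replicate block 30 rose. Same-numbered libraries deviated together with correlations from -0.0759 to 0.193, so the numbers were not taken as pairs. Rising intron counts numbered 1 to 2 when each library was left out. Scaling by total counts alone raised the genes with r above 0 with Myc in RIAKI from 23 to 36. The causes were not tested. The 8 genes with under 100 counts had the 8 largest standard errors.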
